A study of Mus musculus with 5 samples.

Results

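The genes described here encode the extracellular matrix and the basement membrane: collagens, laminins and nidogens, matrix glycoproteins and proteoglycans, and the proteases and inhibitors that remodel them. They were chosen by symbol. A gene was taken if its symbol begins with Col, Lam or Timp in the numbered forms, with Mmp, Adamts, Fbln or Fbn, or is one of a named set such as Fn1, Sparc, Dcn, Lum, Bgn, Postn, Nid1, Nid2, Lox and Eln. The rule found 54 genes on 81 probes with a value on every array, of 8692 genes on 13876 probes in all. By the same symbols, 56 genes on 87 probes lay on the array, and Lama1 and Lamb1 were left out because 1 of the 5 arrays held no value for their only probe. Well-known matrix genes of macrophages such as Spp1, Thbs1, Vcan, Mmp12, Mmp13 and Mmp14 were not among the named probes and are not analysed here.

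Macrophages were grown from the bone marrow of BALB/c mice with human CSF-1, and each of 5 two-channel arrays measured 1 time in lipopolysaccharide (LPS), the outer-membrane component of Gram-negative bacteria. The 0 h culture had no LPS, and the others had been exposed to S. minnesota LPS at 10 ug/ml for 0.5, 2, 7 or 21 h. The second channel of every array held RNA of whole C57BL6/J embryos of day 17.5, a different strain from the macrophages. There was 1 array per time, no culture without LPS at the later times and no replicate, so no test was possible, time in culture cannot be told apart from LPS, and the number of arrays limits the precision.

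Matrix is the scaffold that cells secrete around themselves. Fibrillar collagens, made as triple helices and crosslinked outside the cell by the enzyme that Lox encodes, give tissue its tensile strength. Basement membranes are sheets under epithelia and around vessels, muscle and nerve, built from laminins and type IV collagen that nidogens link together. Most of these components are made by fibroblasts, chondrocytes, muscle and endothelium. Macrophages are better known for remodelling matrix, through secreted metalloproteinases, their tissue inhibitors (TIMPs) and cathepsins. A late embryo is rich in growing cartilage, bone, skin and muscle, tissues known for making matrix. The amount of matrix mRNA in the reference was not measured on its own.

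Values are log ratios as deposited, centred on each array's median. No source used here names the base of the logarithm, so values are in units of the log ratio and no fold change is stated. Macrophage over embryo is the likely direction of the ratio, but nothing in the labels settles it. It was read from markers that are no matrix genes. On the 5 arrays the median of 9 macrophage-lineage genes lay between 0.11 and 0.53 units. That of 23 genes of embryonic blood, liver and muscle lay between -0.78 and -0.34 units. Among the macrophage genes, Lyz2, Fcer1g, Ctss, Cd53 and Ncf4 were above 0 on all 5 arrays. Cd68 and Tyrobp were below 0 on all 5, and Laptm5 and Coro1a lay on both sides. Of the embryonic genes, Cdkn1c, Mdk, Apoa4 and Crabp1 lay on both sides, and the others were below 0 on all 5. At 0 h the macrophage median, 0.11 units, was smaller than the probe error given below. In the opposite direction, "higher" and "lower" would change places throughout. A ratio compares macrophages with embryo for 1 gene and gives no order of mRNA amounts between genes. A ratio near 0 can also come from a spot that is dim in both channels, since signal over background was not used here. Error was estimated from how far paired probes of a gene lay apart, over 3034 genes. The probe-to-probe SD of the ratio was 0.25, 0.37, 0.46, 0.25 and 0.26 units at 0, 0.5, 2, 7 and 21 h. For changes from 0 h it was 0.27, 0.38, 0.23 and 0.23 units on the 0.5, 2, 7 and 21 h arrays. Variation between cultures or labelling reactions does not enter it. The 0.5 h and 2 h arrays also had the widest spread over all probes, with an SD of 0.43 and 0.53 units. On the 0, 7 and 21 h arrays that SD was 0.33, 0.32 and 0.33 units. The 0.5 h array had the most empty values, 681.

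Matrix genes were low in macrophages relative to the embryo, with and without LPS. Of the 54 genes, 36 had a ratio below 0 on all 5 arrays, or 66.7%, against 23.5% of all genes. Only 4 of them, Nid2, Col15a1, Fbln1 and Adamtsl5, were above 0 on all 5, against 22.3% of all genes. Ratios of -0.5 units or lower on all 5 arrays were found for 10 members, or 18.5%, against 1.12% of all genes. Ratios of -1 unit or lower on all 5 were found for 3 members, Col1a1, Col1a2 and Col2a1, against 0.196% of all genes. At 0 h alone 16 members were at -0.5 units or lower, or 29.6%, against 3.88% of all genes. The median ratios of the members, in order of time, were -0.22, -0.26, -0.25, -0.28 and -0.28 units, and that of all genes stayed between -0.01 and 0.02 units. Under the other scalings tried, from 57.4% to 64.8% of members and from 14.3% to 19.4% of all genes were below 0 on all 5 arrays. In whole cultures and whole embryos, fewer cells that express a gene and less RNA of it per cell cannot be told apart.

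The ratios of the matrix genes were similar from array to array. Across the 54 genes the Pearson correlation between any 2 arrays was 0.81 to 0.94, where all genes gave 0.39 to 0.83. The members' ratios were more widely spread, with an SD of 0.45 units against 0.27 for all genes at 0 h. At 2 h it was 0.51 against 0.47 and at 7 h 0.47 against 0.27. Wider spread by itself raises a correlation, so the contrast does not show that matrix genes were steadier. These correlations describe the arrays only, since every array shares the embryo reference and the same probes.

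**Figure D1:**
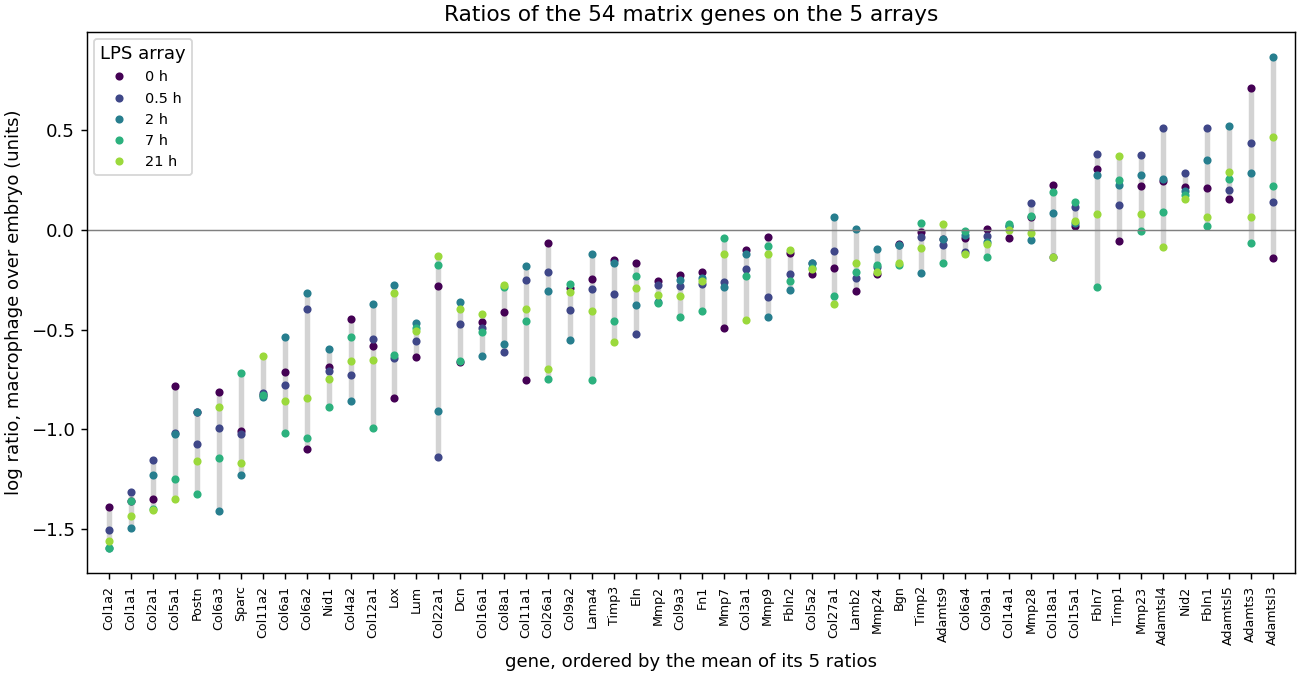
Log ratio of macrophage over embryo RNA (units of the deposited log ratio, vertical axis) for each of the 54 matrix genes, ordered from left to right by the mean of their 5 ratios; each point is 1 array, coloured by time in LPS, and the grey line spans the 5 arrays. Col1a2, Col1a1 and Col2a1 stand at the low end on every array, and most points at the high end belong to ADAMTS-family genes, Fbln1 and Nid2.

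The structural components and the remodelling genes differed in where they stood. The 40 structural members had a median ratio of -0.30 units at 0 h, and 31 of them were below 0 on all 5 arrays. The 14 proteases and inhibitors had a median of -0.04 units, with 5 below 0 on all 5. All 10 genes at or below -0.5 units on every array were structural. No test of this difference was possible with 1 array per time.

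**Figure D2:**
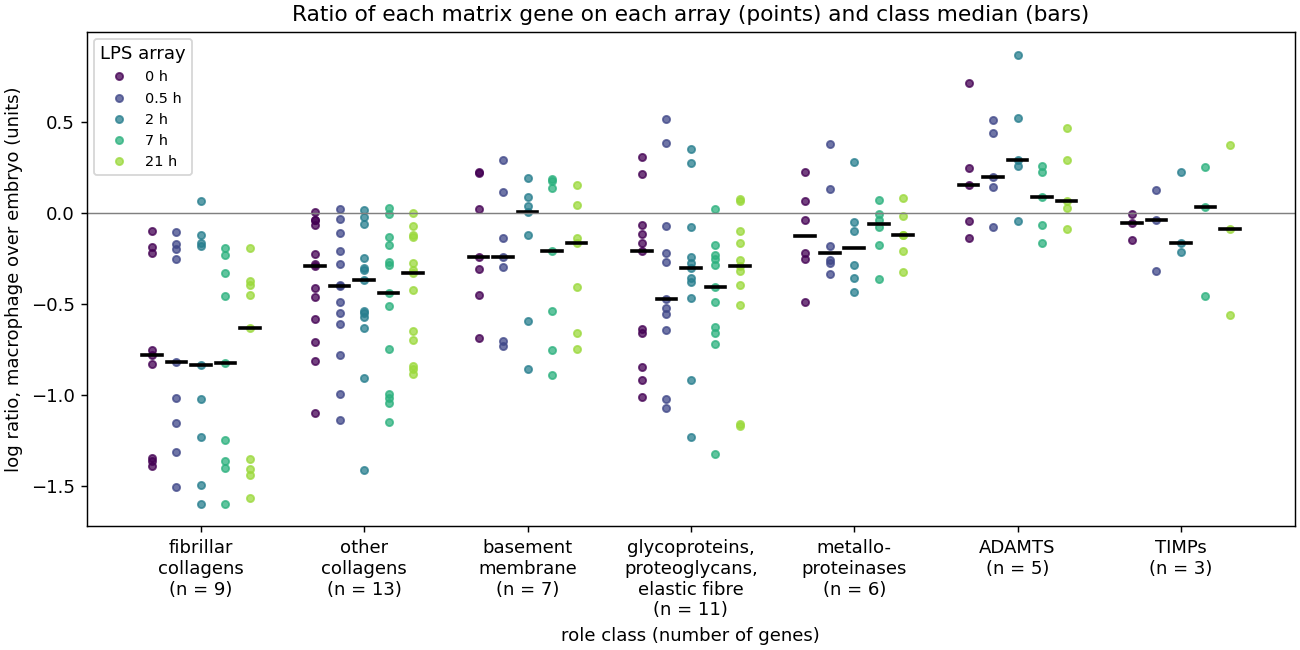
Log ratio of macrophage over embryo RNA (units, vertical axis) for the matrix genes in 7 role classes (horizontal axis, with the number of genes); each point is 1 gene on 1 array, colours give the time in LPS, and black bars are class medians. The median of fibrillar collagens lies between -0.84 and -0.63 units on the 5 arrays, and that of ADAMTS proteins between 0.07 and 0.29 units.

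Fibrillar collagens, which form the banded fibres of skin, bone, tendon and cartilage, were the lowest class, with 8 of 9 genes below 0 on all 5 arrays and 5 of 9 at -0.5 units or lower on all 5. Col1a1 and Col1a2, the genes of the chains that make up type I collagen, stood side by side. Col1a1 had ratios of -1.36, -1.32, -1.496, -1.36 and -1.44 units at 0, 0.5, 2, 7 and 21 h, and Col1a2 had -1.39, -1.51, -1.60, -1.60 and -1.56. Both were low at every time, and none of their changes from 0 h passed 2 SD. The 2 probes of Col1a2 were close, at -1.43 and -1.35 units at 0 h, while those of Col1a1 were at -0.72 and -2.00. Col2a1, the collagen of cartilage, was also low, from -1.41 to -1.16 units. Col11a2, whose chain joins cartilage fibrils, held between -0.84 and -0.63 units on the 1 probe used. A second Col11a2 probe, with no value at 7 h, had deposited ratios, not centred, of -0.32, -0.10, 0.06 and -0.35 units at 0, 0.5, 2 and 21 h. The low ratio of Col11a2 thus rests on 1 of its 2 probes.

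Col5a1, a chain of the type V collagen that nucleates type I fibrils, was at -0.78, -1.02, -1.02, -1.25 and -1.35 units in order of time, its lowest values on the late arrays. Its 2 probes lay apart, at -1.12 and -0.45 units at 0 h and at -1.87 and -0.83 at 21 h. The other 4 fibrillar collagens were nearer to the array median on most arrays. The partner chain Col5a2 stayed between -0.22 and -0.16 units. Col3a1, the collagen of distensible tissues such as skin and vessels, was at -0.10, -0.20, -0.12, -0.23 and -0.45 units on 3 probes. Col3a1 and Col5a2 are neighbours in the genome with no protein-coding gene between them, and both were far above the type I genes at every time. Col27a1 ranged from -0.37 to 0.07 units. Col11a1 was at -0.75 units at 0 h and between -0.46 and -0.18 on the LPS arrays, with changes inside the 2 SD bands.

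The stretches just upstream of 4 members are shown because they belong to the lowest ratio (Col1a2), to genes lower on both late arrays (Col5a1 and Adamts3) and to the inhibitor whose ratio was highest at 21 h (Timp1). Each is the 150 bases before the RefSeq start on the gene's strand, 5′ to 3′, build GRCm38.p6. Col1a2 lies at chr6:4505468-4505617 on the + strand, Col5a1 at chr2:27886275-27886424 on the + strand, Adamts3 at chr5:89883335-89883484 on the - strand and Timp1 at chrX:20870016-20870165 on the + strand. Capitals mark every match, on either strand, to the CCAAT box (CCAAT), the AP-1 site (TGACTCA), the GC box (GGGCGG) and a CT-rich element (CCTCCC). Overlapping matches run together.
Col1a2: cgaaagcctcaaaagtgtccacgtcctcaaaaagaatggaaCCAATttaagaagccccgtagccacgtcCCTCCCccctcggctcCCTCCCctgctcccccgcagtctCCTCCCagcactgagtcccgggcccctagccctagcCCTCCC
Col5a1: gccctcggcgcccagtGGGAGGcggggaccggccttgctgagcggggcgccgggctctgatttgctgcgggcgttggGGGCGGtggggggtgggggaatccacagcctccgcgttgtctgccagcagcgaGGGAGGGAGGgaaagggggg
Adamts3: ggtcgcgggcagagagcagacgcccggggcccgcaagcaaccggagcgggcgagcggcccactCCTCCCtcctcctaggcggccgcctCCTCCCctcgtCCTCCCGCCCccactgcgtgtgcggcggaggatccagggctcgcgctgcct
Timp1: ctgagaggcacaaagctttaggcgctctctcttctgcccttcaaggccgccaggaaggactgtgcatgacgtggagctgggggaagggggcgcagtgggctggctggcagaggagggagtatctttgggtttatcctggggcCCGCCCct

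Col1a2 held 1 CCAAT and 4 CCTCCC matches, Col5a1 and Adamts3 each held 3 CCTCCC and 1 GGGCGG, and Timp1 held 1 GGGCGG. RefSeq promoter entries matched 37 of the 54 members, with 44 promoters. In the 250 bases upstream, CCTCCC was found in 56.8% of member promoters, against 45.7% of the promoters of all measured genes and 38% of all promoters in the table. GGGCGG was found in 61.4%, against 52% and 32.7%. CCAAT was found in 29.5%, against 35.1% and 33.8%. TGACTCA, the letters bound by AP-1, was found in 4.55%, against 3.84% and 4.46%. A match is a run of letters and not a measured binding site.

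The other collagens spanned low to near-median ratios, with 11 of 13 below 0 on all 5 arrays. The type VI chains, which make beaded filaments around cells in muscle and skin, were among the lowest. Col6a1 was at -0.71, -0.78, -0.54, -1.02 and -0.86 units, with its 2 probes at -0.70 and -0.72 at 0 h. Col6a3 was at -0.81, -0.995, -1.41, -1.15 and -0.89 units. Col6a2, the genomic neighbour of Col6a1, was at -1.10, -0.40, -0.32, -1.04 and -0.84 units, so its 0.5 h and 2 h values stood above the other arrays. Col6a4 differed from these chains, between -0.12 and -0.01 units. Among fibril-associated collagens, Col12a1 was between -0.996 and -0.37 units and Col16a1 between -0.63 and -0.42, while Col14a1 stayed between -0.04 and 0.03. The cartilage collagens Col9a1, Col9a2 and Col9a3 were milder than Col2a1. Col9a2 ranged from -0.55 to -0.27 units, Col9a3 from -0.44 to -0.23 and Col9a1 from -0.13 to 0.00. Col8a1, a short-chain collagen of vessels and the eye, ranged from -0.61 to -0.28 units.

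Basement-membrane genes were mixed, with a class median of -0.24 units at 0 h and 3 of 7 below 0 on all 5 arrays. Nid1, which ties laminin to type IV collagen, was the lowest of them, at -0.69, -0.71, -0.60, -0.89 and -0.75 units. Its relative Nid2 was on the other side, at 0.22, 0.29, 0.19, 0.18 and 0.16 units. The ranges of the 2 nidogens over the 5 arrays did not overlap, and Nid2 rests on 1 probe. Col4a2, a chain of the type IV network, was at -0.45, -0.73, -0.86, -0.54 and -0.66 units, low on every array. The laminin genes were closer to the median: Lamb2 was between -0.31 and 0.01 units, and Lama4, the laminin alpha chain of vessels and muscle, between -0.75 and -0.12. Col15a1 and Col18a1, whose proteins carry sugar chains and lie in the basement membrane zone, were near 0, from 0.02 to 0.14 and from -0.14 to 0.23 units.

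Among 11 glycoprotein, proteoglycan and elastic-fibre genes, 9 were below 0 on all 5 arrays. Sparc, which encodes a collagen-binding protein abundant in bone, was at -1.01, -1.02, -1.23, -0.72 and -1.17 units. Postn, a gene of periosteum and fibrous tissue, was at -0.92, -1.07, -0.92, -1.33 and -1.16 units. These 2 genes were low at every time, as was Lum, a collagen-binding proteoglycan, between -0.64 and -0.46 units. Dcn, the neighbour of Lum in the genome and a proteoglycan of the same family, was at -0.66, -0.47, -0.36, -0.66 and -0.40 units. Its 3 probes ranged from -1.12 to -0.02 units at 0 h. Eln, which encodes elastin, lay between -0.52 and -0.17 units, Fbln2 between -0.30 and -0.10, and the small proteoglycan gene Bgn between -0.18 and -0.07. Fn1, which encodes fibronectin and is made by many cells including macrophages, was at -0.21, -0.27, -0.24, -0.41 and -0.26 units. Fbln1 was above 0 throughout, from 0.02 to 0.51 units, on 1 probe.

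The remodelling genes were near the array median. Mmp9, the gelatinase B of neutrophils and macrophages, was at -0.04, -0.34, -0.44, -0.08 and -0.12 units. Its changes from 0 h, which were -0.30, -0.40, -0.04 and -0.08 units in order of time, all lay within 2 SD. Mmp2, the gelatinase of stromal cells, was between -0.36 and -0.25 units. Mmp7, the matrilysin of epithelia, was at -0.49, -0.26, -0.29, -0.04 and -0.12 units, and its change of 0.45 at 7 h was just under the 0.462 units that make 2 SD. Mmp23, Mmp24 and Mmp28 lay between -0.22 and 0.38 units. Timp1, an inducible inhibitor of metalloproteinases, was at -0.06, 0.13, 0.22, 0.25 and 0.37 units, so its lowest array was 0 h and its highest 21 h. Its change of 0.43 units at 21 h was under the 0.467 that make 2 SD, and it rests on 1 probe. Timp2 stayed between -0.22 and 0.03 units. Timp3, which binds to matrix, was at -0.15, -0.32, -0.17, -0.46 and -0.56 units, with all changes within 2 SD. Its 2 probes changed by -0.45 and -0.17 units at 7 h and by -0.42 and -0.41 at 21 h.

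Members of the ADAMTS family, secreted proteases and protease-like proteins of the matrix, had the highest class median at 0 h, 0.15 units. Adamtsl5 was measured by 6 probes, with ratios of 0.15, 0.20, 0.52, 0.26 and 0.29 units. Adamts9 was between -0.17 and 0.03 units, and Adamtsl4 between -0.09 and 0.51.

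After LPS, few matrix genes passed the probe error, and the share that passed at any of the 4 times was near that of all genes. A gene was counted when its change from 0 h passed 2 times the probe-to-probe SD. At 0.5 h, 1 of 54 members was higher (1.85%, against 4.3% of all genes) and 1 was lower (1.85%, against 0.357%). At 2 h, 2 were higher (3.7%, against 4.84%) and 0 were lower, against 0.23%. At 7 h, 0 were higher, against 3.11%, and 5 were lower (9.26%, against 3.35%). At 21 h, 2 were higher (3.7%, against 4.04%) and 3 were lower (5.56%, against 2.25%). In all, 9 members passed at some time, or 16.7%, against 14.6% of all genes. By the larger threshold of 1 unit, Adamtsl3 alone passed, higher at 2 h (1.85%, against 2.72%). No other member was 1 unit higher at any time, where 1.47%, 0.276% and 0.253% of all genes were at 0.5, 7 and 21 h. None was 1 unit lower, where 0.023%, 0.092%, 0.127% and 0.0575% of all genes were at 0.5, 2, 7 and 21 h. In order of time, the median changes of the members were -0.02, -0.01, -0.05 and -0.07 units, and those of all genes 0.01, 0.03, 0.00 and 0.01. These medians are small beside the probe error and moved with the setting.

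**Figure D3:**
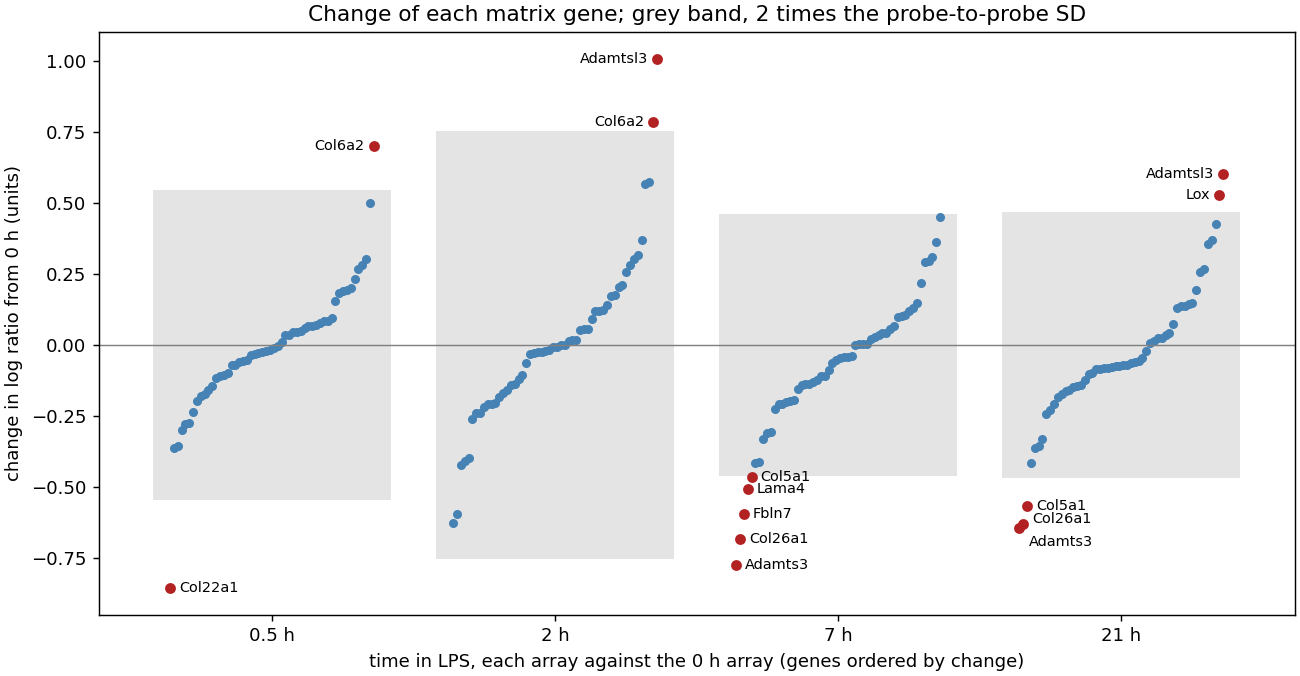
Change in log ratio from the 0 h array (units, vertical axis) of the 54 matrix genes at 0.5, 2, 7 and 21 h of LPS (horizontal axis; genes ordered by change within a time). Grey bands mark 2 times the probe-to-probe SD, and red, named points lie outside it: 2 genes at each of 0.5 and 2 h, and 5 at each of 7 and 21 h. All 4 comparisons share the 0 h array, so an unusual 0 h value enters every column.

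The genes past 2 SD at the early times were Col22a1, Col6a2 and Adamtsl3. Col22a1, a collagen of tissue junctions, was at -0.28, -1.14, -0.91, -0.18 and -0.13 units. It was lower at 0.5 h by 0.86 units and its change at 2 h was -0.63, within 2 SD. The 0.5 h and 2 h arrays thus lay apart from the other 3. They were also the arrays with the widest spread of values over all probes. Col6a2 was higher by 0.70 units at 0.5 h and by 0.78 at 2 h, with changes of 0.06 and 0.26 at 7 and 21 h. With the 0.5 h array as baseline the 2 h change of Col6a2 was 0.08 units. The other type VI chains did not share it: at 2 h Col6a1 changed by 0.17 units and Col6a3 by -0.60. Adamtsl3, an ADAMTS-like gene without protease domain, was at -0.14, 0.14, 0.87, 0.22 and 0.46 units, higher by 1.01 units at 2 h and by 0.60 at 21 h. Its change at 7 h, 0.36 units, was within 2 SD.

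The genes past 2 SD on the late arrays were mostly lower. Adamts3, which encodes a protease known for cleaving procollagen and the precursor of a lymphatic growth factor, was at 0.71, 0.44, 0.29, -0.06 and 0.07 units. It was lower than at 0 h by 0.78 units at 7 h, and its change was -0.64 at 21 h. Its 0 h ratio was the highest of the members. Col26a1 was at -0.06, -0.21, -0.30, -0.75 and -0.70 units, with changes of -0.68 at 7 h and -0.63 at 21 h. Col5a1 had changes of -0.46 at 7 h and -0.57 at 21 h, and its 2 probes gave -0.45 and -0.48 at 7 h and -0.75 and -0.38 at 21 h. It was the one gene with a call that had more than 1 probe. Adamts3, Col26a1 and Col5a1 were the 3 members past 2 SD lower at both late times, or 5.56%, against 1.35% of all genes. No member was past 2 SD higher at both, against 1.77%.

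Fbln7 and Lama4 passed at 7 h alone. Fbln7, a fibulin, was at 0.31, 0.38, 0.27, -0.29 and 0.08 units, lower by 0.59 at 7 h. Lama4 changed by -0.51 units at 7 h and -0.16 at 21 h. Lox, the crosslinking enzyme of collagen and elastin, was at -0.84, -0.64, -0.28, -0.63 and -0.32 units. It was higher by 0.53 units at 21 h and by 0.57 at 2 h, where 2 SD made 0.753. Lox was below the embryo on every array. With the 0.5 h array as baseline, 1 of the 12 calls at 2, 7 and 21 h stayed past 2 SD, that of Adamtsl3 at 2 h (0.73 units). With that baseline the changes at 7 h were -0.50 for Adamts3, -0.54 for Col26a1, -0.67 for Fbln7, -0.45 for Lama4 and -0.23 for Col5a1. The probe SD at 7 h was 0.34 units with this baseline against 0.23 with 0 h, so Adamts3, Col26a1 and Fbln7 lay past the 2 SD of the 0 h baseline but within the wider limit. At 21 h the changes were -0.37 for Adamts3, -0.49 for Col26a1, -0.33 for Col5a1, 0.33 for Lox and 0.32 for Adamtsl3.

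**Figure D4:**
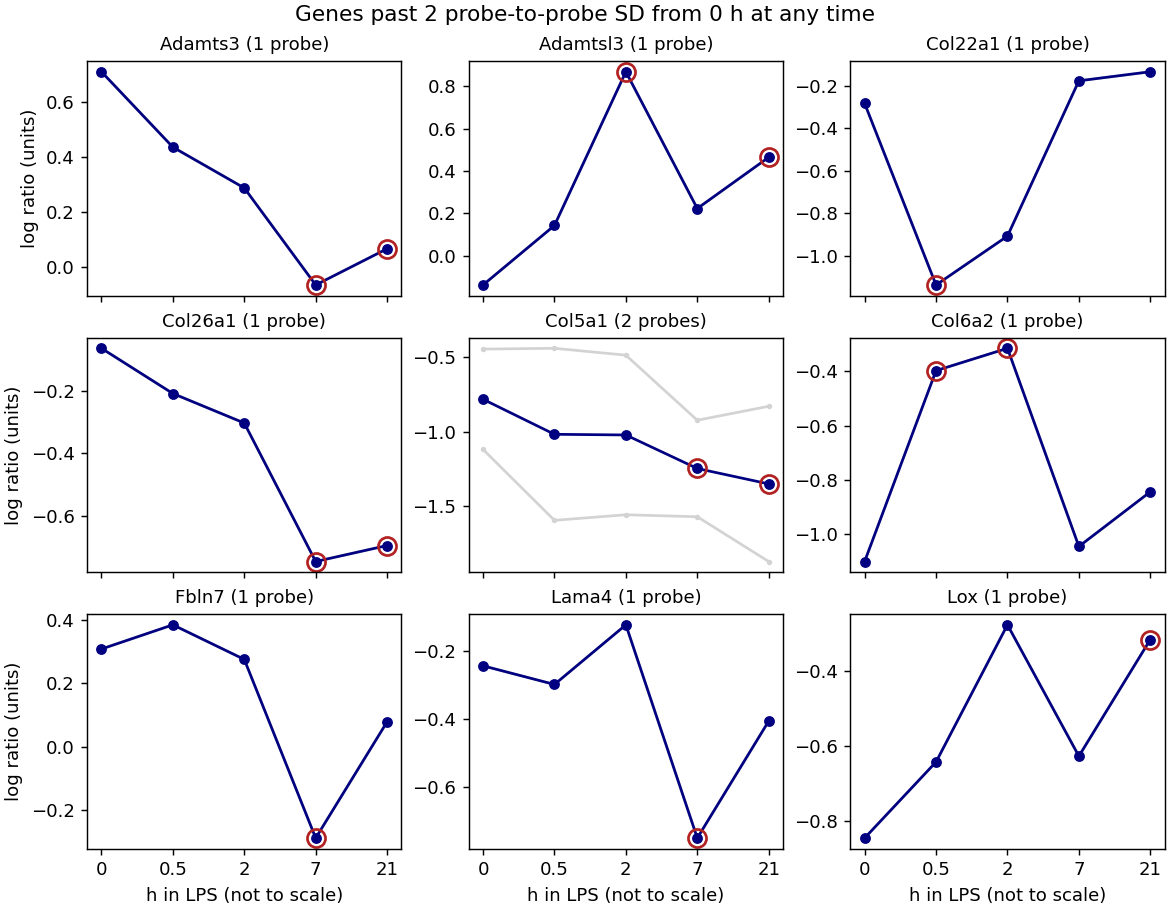
Log ratio (units, vertical axis, with a scale of its own in each panel) on the 5 arrays for the 9 matrix genes past 2 probe-to-probe SD from 0 h at any time; blue lines are gene values, grey lines the single probes of Col5a1, and red circles mark the times that passed. Adamts3, Col26a1 and Col5a1 are lower on both late arrays, while Col22a1 and Col6a2 depart on the 0.5 h and 2 h arrays.

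In the centred data, the lower late values went with the number that identifies each probe in the deposited table. Its part in them was not tested. Of the 81 member probes, 40 carry numbers up to 3000, or 49.4%, where 17.1% of all named probes do. Both late arrays were below both early ones for 23 of 54 members, or 42.6%, against 26.3% of all genes, and above both for 9, or 16.7%, against 28.7%. Among genes whose probes all have numbers up to 3000, that share was 50% of 26 members and 50.3% of 1218 genes. Among genes with all numbers above 3000 it was 33.3% of 24 members and 21.4% of 6586 genes. With a running median along the probe numbers removed, 17 members were below (31.5%, against 24.9%) and 15 above (27.8%, against 27.5%). The share below was then 23.1% of members and 33.8% of all genes with numbers up to 3000. With numbers above 3000 it was 45.8% of members and 23.1% of all genes. In the stretch up to 3000, 12.1% of all genes passed 2 SD lower at 7 h and 6.65% at 21 h, against 2.13% and 1.67% above it. Of the members, 4 of 26 passed lower at 7 h in that stretch and 1 of 24 above it. Of the genes lower at 7 h, Adamts3, Col26a1, Col5a1 and Lama4 have their probes in that stretch and Fbln7 does not. After removal of the running median Adamts3, Col26a1 and Fbln7 stayed past 2 SD at 7 h. The 7 h changes of Col5a1 and Lama4 were then -0.32 and -0.29 units, within it. At 21 h Adamts3, Col26a1 and Col5a1 all stayed past 2 SD lower, with changes of -0.54, -0.49 and -0.45 units.

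Ratios to the embryo were set against probe number too. Members below 0 on all 5 arrays made up 73.1% of those with probe numbers up to 3000 and 54.2% of those above, where all genes gave 23.5% and 23.4%. The part of probe number in the members' ratios was not tested. With the running median removed, 35 of 54 members were below 0 on all 5, or 64.8%, against 19.4% of all genes.

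More than 1 probe measured 20 members, and their probes were compared. At 0 h all probes of a gene lay on 1 side of 0 for 13 of these 20, of which 12 were below, and at 21 h for 16 of 20. For changes from 0 h all probes had 1 sign for 8, 10, 11 and 12 of the 20 members in order of time. The median range between the probes of a gene lay between 0.30 and 0.39 units for ratios and between 0.19 and 0.32 for changes. Changes were also smaller than ratios, with an SD over the members of 0.23 to 0.30 units against 0.45 to 0.51. A range of a given width spans 0 more easily for a small change. From 0 to 21 h the 2 probes of Nid1 changed by -0.36 and 0.24 units, and the changes of the 3 Dcn probes ranged from -0.23 to 0.74. Both probes of Sparc were higher at 7 h, by 0.19 and 0.40 units, with a mean of 0.29 within 2 SD, and both were lower at 21 h.

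**Figure D5:**
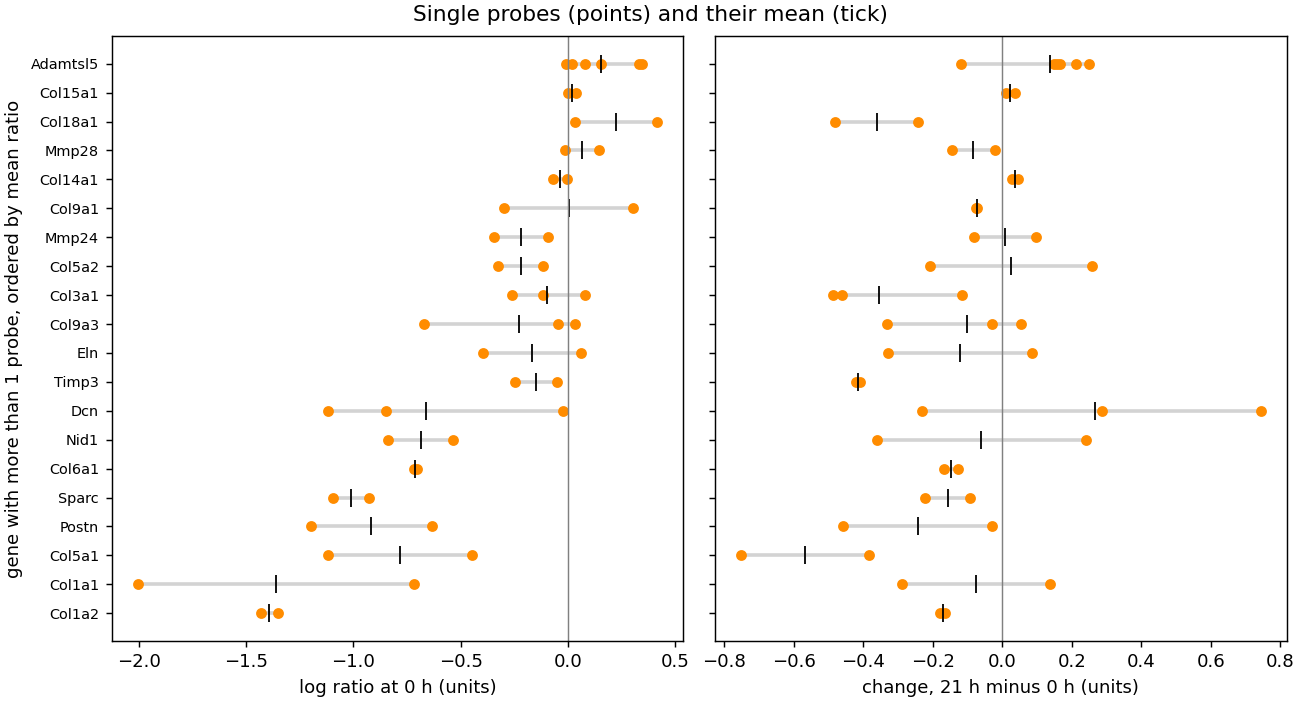
Values of single probes (orange points) and their mean (black tick) for the 20 matrix genes with more than 1 probe, ordered by the mean of their 5 ratios (vertical axis); the left panel gives the log ratio at 0 h and the right panel the change from 0 h to 21 h, both in units. On the left, the 9 lowest genes have all probes below 0; on the right, probes of Col1a1, Nid1, Dcn and Col5a2 lie on both sides of 0.

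Differences between arrays that share none of their cultures gave a further description of the late changes. Both pairs set late arrays against early ones at different times in LPS, so they are no replicates. The change from 0 h to 7 h and that from 0.5 h to 21 h had the same sign for 35 of 54 members, where 68.6% of all genes did, and the change from 0.5 h to 7 h and that from 0 h to 21 h for 38, where 66.3% did. The reference and the probes are common to all arrays, and lower late values went with probe number. The part of probe number in these signs was not tested.

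Other genes of the matrix pathway were taken from 5 fixed lists. Of 13 genes of collagen folding, crosslinking and processing, 0 passed 2 SD at any time, where 14.6% of all genes did. Serpinh1, the collagen chaperone of the endoplasmic reticulum, had ratios of -0.64, -0.82, -0.76, -0.80 and -0.80 units on 3 probes. It was low on every array but nearer to 0 than the type I collagen genes, and the list median at 0 h was 0.03. Of 17 other matrix components, with a median of -0.17 units at 0 h, Mfap5 was higher at 2 h by 0.80 units and Hapln1, the cartilage link protein, was lower, with changes of -0.63 at 7 h and -0.60 at 21 h. The others lay within 2 SD. Of 7 genes of the plasminogen system and secreted proteases, Serpinb2, an inhibitor of plasminogen activators that LPS is known to induce, was at -0.28, 0.41, 0.42, 0.95 and 0.74 units. It was higher by 0.70 units at 0.5 h, 1.23 at 7 h and 1.03 at 21 h. At 7 and 21 h these were larger than the change of any member. Ctsk, a collagen-degrading cathepsin, was lower at 7 h, with a change of -0.57 units. Of 6 growth-factor and Smad genes and of 14 matrix receptors, 0 passed at any time, against the same 14.6% of all genes. Among the receptors Mrc2, which takes up collagen, was between 0.27 and 0.47 units, and Ddr2, a collagen receptor of fibroblasts, between -0.81 and -0.43.

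Markers of cells that make matrix were compared with the members. The median ratio at 0 h was -0.13 units for 16 fibroblast and smooth-muscle genes, -0.04 for 8 endothelial genes and -0.22 for 8 genes of cartilage and bone. Over the 5 arrays these medians ran from -0.13 to 0.04, from -0.04 to 0.02 and from -0.22 to 0.00 units. Their median changes were 0.18 units for fibroblast genes, 0.08 for endothelial and 0.06 for cartilage and bone genes at 7 h, where the members were at -0.05. At 2 h they were 0.22, 0.04 and 0.33 units, where the members were at -0.01. Gas1, of the fibroblast list, was higher at 0.5 h by 0.68 units. At 2 h Tbx18 of that list was higher by 2.33 units, the endothelial gene Cdh5 by 0.87 and the cartilage gene Chad by 0.85. Col6a2 and Adamtsl3 were also higher at that time, on the array with the widest spread of values. At 7 h, Gas1 of the fibroblast list passed 2 SD higher and Hapln1, which is also in the cartilage list, lower. At 21 h Gas1 and Chad passed higher and Hapln1 lower. Their part in the members' values was not tested. The embryonic blood, liver and muscle genes had a median change of 0.22 units at 7 h and 0.23 at 21 h. Of these 23 genes, 3 passed 2 SD higher at each time, where 3.11% and 4.04% of all genes did.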

How the data were processed

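The values deposited by the authors are signed log ratios of 2-channel arrays, 1 for each probe, from amino-allyl labelled cDNA per the labels. Their background correction, normalization, logarithm base and direction are not stated in the labels or the files. Of 19828 probes, 14759 had 1 gene in the platform annotation, 170 had several and 4899 had none listed; only the first were named, and the IDs of all 87 member probes were found in the RefSeq gene table. Probes valued on every array (18391) were centred on each array's median and averaged by gene. A change is a later array minus the 0 h array. Spread is the SD, over genes, of the difference between their 2 lowest-numbered probes, scaled by 1 over the square root of 2; the limit of 2 SD is that of single probes for every gene. Members past 2 SD, extremes of the ratio and of each role class, members with more than 1 probe and 17 followed genes (6 measured) were named.

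Members, lists, rules and thresholds were chosen with earlier results of these data known. Alternatives were values without centring, quantile normalization and cyclic loess (limma 3.58.1, R 4.3.3), removal of a running median over 201 probe numbers, other baselines, single probes, genes with more than 1 probe and a limit of 3 SD. The split by probe number and the counts of late against early arrays were added after the data were seen. The calculation was tested on simulated data, with planted changes larger than that of any member and independent noise for each probe. The simulation held no drift with probe number and no variation between cultures. It does not show how well smaller changes are found. Python 3.11.15, numpy 2.4.6, pandas 2.3.3 and matplotlib 3.10.9 were used.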

Additional observations from a re-analysis of the deposited data

How the results depend on the processing

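No paired analysis was possible because each time has 1 array. The members' median ratio at 0 h kept its sign in every setting tried, at -0.15 without centring, -0.17 with quantile normalization and -0.15 with cyclic loess against -0.22 units. Median changes at 7 and 21 h kept their sign. They moved to -0.14 and -0.13 units without centring, where those of all genes were -0.08 and -0.05. They were -0.12 and -0.11 with quantile normalization, and -0.12 and -0.12 with cyclic loess. With the running median removed the 21 h median was -0.0135. Without centring the medians were 0.0422 units at 0.5 h and 0.0442 at 2 h, where the median of all genes was 0.07 and 0.08. The 2 h median also turned positive with quantile normalization (0.01), cyclic loess (0.02), the running median removed (0.02) and single probes (0.01). Counts past 2 SD are small, and most moved by over 1.5 times in some setting. Without centring 2 members were higher at 0.5 h. With quantile normalization 4 were higher at 2 h and 1 at 21 h, and 2 were lower at 0.5 h and 1 at 2 h. With cyclic loess 2 were higher at 0.5 h, 4 at 2 h and 1 at 21 h, and 2 were lower at both 0.5 and 2 h. With the running median removed 0 were higher at both 0.5 and 2 h, 2 at 7 h and 1 at 21 h. In that setting 1 was lower at 2 h, 3 at 7 h and 4 at 21 h. With the 0.5 h array as baseline 1 was higher at each of 2, 7 and 21 h and 0 were lower at 7 and 21 h. With the mean of 0 and 0.5 h as baseline 1 was higher at each of 2, 7 and 21 h and 3 were lower at 7 h. Counting single probes gave 2, 8 and 5 lower at 0.5, 7 and 21 h. With genes of more than 1 probe, 20 members, 0 were higher at 0.5, 2 and 21 h, 0 lower at 0.5 h and 1 lower at both 7 and 21 h. At 3 SD 0 were higher at 0.5, 2 and 21 h, 1 was lower at 7 h and 0 at 21 h. Of the 14 calls of single members, 0 turned sign; 14 held without centring, 13 with quantile normalization, 13 with cyclic loess, 8 with the running median removed, 6 of 12 with the mean baseline and 1 of 12 with the 0.5 h baseline. The lower count at 0.5 h in Col22a1 held in each of the 4 scalings tried. With 1 array per time, depth of signal and dim spots could not be weighed.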

Other observations

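On 6 probes of matrix symbols 1 of the 5 arrays held no value; 4 of these belong to members and the others to Lama1 and Lamb1. The Col4a2 probe had deposited log ratios between -0.55 and -0.33 units, the Col11a2 probe between -0.35 and 0.06 and the Col18a1 probe between -0.06 and 0.16. The Sparc probe was at -1.77, -1.37, -1.44 and -1.43 units at 0, 0.5, 2 and 21 h, beside the other 2 Sparc probes. The Lamb1 probe, a laminin chain with no other probe, was at -0.74, 0.01, -0.70 and -0.33 units at 0, 2, 7 and 21 h. The Lama1 probe was at 0.04, 1.37, 0.27 and 0.75 units at the same times. Its 2 h value stood apart, on the array with the widest spread. These values were not centred and enter no comparison.

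Among the probes of single genes, the widest gap in the ratio at 0 h between probes of 1 member was that of Col1a1, whose 2 probes carry the same accession in the platform annotation and lay 1.29 units apart, at -0.72 and -2.00 units.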
